A study of Mus musculus with 4 samples.

Results

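The chemokine and reelin pathways were followed through 7 genes in the developing mouse pontine nucleus: the ligand Cxcl12 with its receptors Cxcr4 and Ackr3, and the ligand Reln with its receptors Vldlr and Lrp8 and their adaptor Dab1. The rule took the genes by name, with no measured value in it, from the 19938 genes that the platform's table names, and each of the 7 had a single probe set, so that no choice between probe sets was needed. Pontine nucleus was dissected from ICR mice at embryonic day 17.5 (E17.5) and at postnatal days 1, 5 and 14 (P1, P5 and P14). The tissue of 27, 16, 13 and 12 mice was pooled, in that order, and each pool was hybridised to 1 Affymetrix array. The mice carried no stated allele and received no stated agent. The 4 groups therefore hold 1 sample each, no test could be run, and every difference below is a difference between single arrays.

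Pontine neurons are glutamatergic cells that are born in the rhombic lip of the hindbrain, migrate beneath the surface of the brain stem and settle in the ventral pons, from where they send mossy fibres to the cerebellum. CXCL12 is a chemokine secreted by the meninges, and CXCR4, a receptor coupled to Gi proteins, holds migrating neurons of this stream at the brain surface; ACKR3 (formerly CXCR7) binds the same chemokine, recruits arrestin and removes it from the tissue. Reelin is a large secreted glycoprotein that positions neurons in layered and nuclear structures. It binds the lipoprotein receptors VLDLR and APOER2 (the product of Lrp8), which leads Src family kinases to phosphorylate DAB1 on their cytoplasmic tails.

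The values are normalised signals on the log2 scale, on which a difference of 1 is 2-fold. A gene counted as past the level filter when its highest array reached 8.41, the median of all probe sets with a single gene symbol, and 5 of the 7 genes did so: Cxcl12, Reln, Vldlr, Lrp8 and Dab1, each of them on all 4 arrays. Cxcr4 and Ackr3 lay under 8.41 on every array, so the sizes of their differences are inexact. The only error the files allow is the standard deviation, between probe sets of the same gene, of a difference between 2 arrays. It was taken from 645 genes with several probe sets past the filter. It was 0.12 for P1 against E17.5, 0.18 for the P5-labelled array against P1 and 0.10 for the P14-labelled array against P1. It holds probe and measurement noise. Errors that the probe sets of a gene share on an array are not in it, and the spread between pools of mice is unknown. Cxcr4 and Ackr3 lie under the filter, so this standard deviation was not measured at their level. Where it is set beside their differences, it comes from brighter probe sets. In bulk tissue, fewer cells of a type and less RNA per cell cannot be told apart.

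Array similarity ran against the labelled ages. Over the 10901 genes past the filter, the P14-labelled array resembled P1 closely (r = 0.966 across genes, 160 genes at least 2-fold apart), and the P5-labelled array did so less (r = 0.809, 1406 genes). The median of 9 myelin markers, of 10 listed, was 7.35 at E17.5, 7.62 at P1, 12.43 on the P5-labelled array and 8.50 on the P14-labelled one. The labels are kept as deposited, and whether these 2 were exchanged was not tested. The order of the values depends on it. With the 2 labels exchanged, the values of Lrp8, Reln and Cxcr4 printed below would be lower at each step from E17.5 to the oldest age, Vldlr would be highest and Ackr3 no longer lowest at the oldest age, and the values of Cxcl12 and Dab1, within 0.02 of each other on the 2 arrays, would keep their course. The comparison of P1 with E17.5 uses neither of these arrays, and each of the 2 is set against P1 separately. Of the 11 markers of pontine and rhombic lip neurons, 9 passed the filter. Their median was 10.87, 10.05, 9.68 and 9.90 in the order of the labels, their summed linear signal was 30260, 22708, 13198 and 19257, and 0, 2, 3 and 3 of them lay under 6.87, the lower quartile of named probe sets. Barhl1, a homeobox factor of these neurons, stood at 12.23, 11.79, 10.83 and 11.61. Slc17a6, a vesicular glutamate transporter, was instead highest on the P5-labelled array (11.44, 11.17, 11.57 and 11.49). Atoh1, the factor that defines their progenitors in the rhombic lip, lay under the filter at 7.47 and below.

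**Figure D1:**
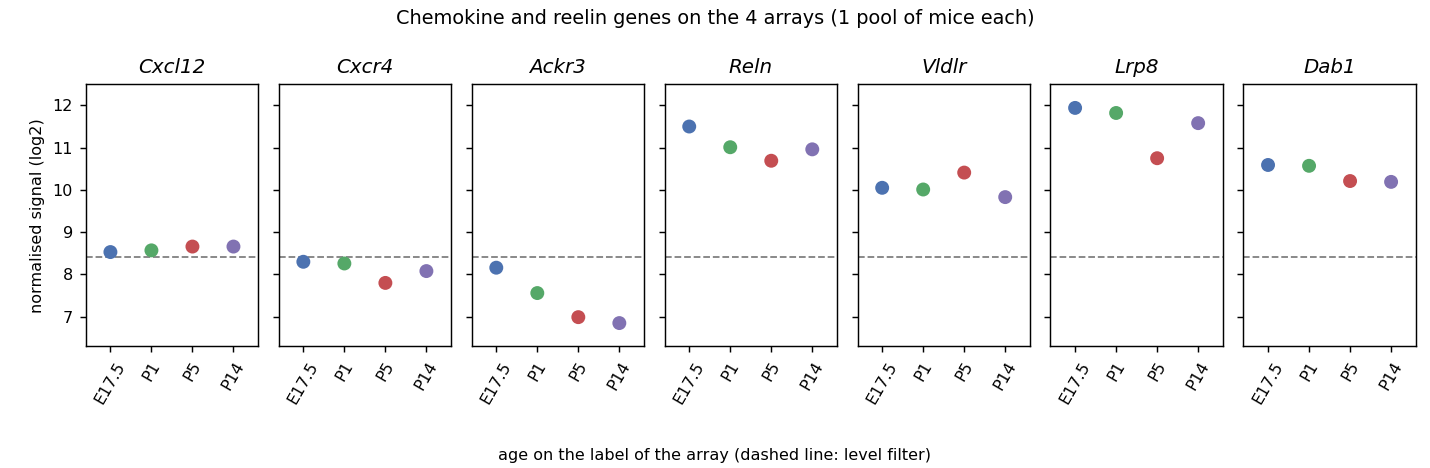
Normalised signal (log2) of each of the 7 genes on the arrays labelled E17.5, P1, P5 and P14; each point is 1 array of 1 pool, and the dashed line is the level filter at 8.41. Lrp8 and Reln are lowest and Vldlr is highest on the P5-labelled array, Ackr3 is highest at E17.5, and Cxcl12 spans 0.13.

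Among the 7 genes, those with the largest ranges over the arrays were Ackr3 (1.31) and Lrp8 (1.19), followed by Reln (0.81), Vldlr (0.58), Cxcr4 (0.50), Dab1 (0.40) and Cxcl12 (0.13). Without the P5-labelled array, the range of Lrp8 was 0.36, that of Reln 0.54, and those of Vldlr and Cxcr4 0.22 each, while Ackr3, Dab1 and Cxcl12 kept theirs. Without the P14-labelled array, the largest change was that of Vldlr, to 0.40. The signals of different probe sets were not set against each other, since each depends on its own probes.

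The chemokine itself was level across the arrays. Cxcl12 measured 8.53 at E17.5, 8.57 at P1, and 8.66 on both the P5-labelled array and the P14-labelled one. All 4 values lay just above the filter, and no difference between 2 of them was larger than the probe set standard deviation of that comparison. Markers of the meninges and fibroblasts, cells known to secrete this chemokine beside the migrating stream, did not stay level. Their median over 12 markers was 7.52 at E17.5 and at P1, 8.74 on the P5-labelled array and 8.84 on the P14-labelled one. The summed linear signal of the 12 was 3817, 3584, 7525 and 8587 in the same order, and 3, 3, 1 and 2 of them lay under 6.87. The part of this shift in the Cxcl12 signal was not tested.

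Cxcr4, the signalling receptor, measured 8.30 at E17.5, 8.26 at P1, 7.80 on the P5-labelled array and 8.08 on the P14-labelled one. E17.5 and P1 differed by 0.04, well inside the probe set spread. The P5-labelled array was 0.46 lower than P1 (2.6 times the probe set standard deviation), and the P14-labelled one was 0.18 lower (1.7 times). The step of 0.46 was a common one, matched or exceeded in this direction by 12.8% of all 19938 genes on the P5-labelled array. Microglia can also make Cxcr4, and the median of 10 microglial markers was 7.78, 8.34, 9.12 and 8.70 in the order of the labels. Their summed linear signal was 2822, 4018, 6490 and 5576, and 2, 0, 1 and 1 of them lay under 6.87. The median of the pontine and rhombic lip markers, given above, was lowest on the P5-labelled array, as Cxcr4 was. The part of microglia or of these neurons in the Cxcr4 signal was not tested.

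Ackr3, the scavenging receptor, measured 8.16 at E17.5, 7.56 at P1, 6.99 on the P5-labelled array and 6.85 on the P14-labelled one. The E17.5 value was the highest by 0.60, and the values labelled P5 and P14 lay 0.14 apart, as far as the probe set standard deviation of that comparison (0.14). The difference between E17.5 and P1 was 5.1 times the probe set standard deviation, and 1.32% of all genes were as much lower at P1. Against P1, Ackr3 was 0.57 lower on the P5-labelled array, as were 8.74% of all genes, and 0.71 lower on the P14-labelled array, as were 0.461% of all genes. Against E17.5 the differences were -1.17 and -1.31, both past 2-fold, but all of these values lie under the filter. Endothelial cells also make Ackr3, and the medians of 9 endothelial markers, of 10 listed, were 9.19, 9.00, 9.36 and 9.25, with Cldn5, the tight junction claudin of brain vessels, at 10.69, 10.78, 10.94 and 11.08. No endothelial marker lay under 6.87 on any array, and their summed signal was 5429, 5572, 7366 and 6871. The part of endothelial cells in the Ackr3 signal was not tested. The change of Cxcr4 relative to Ackr3 between E17.5 and P1 was 0.56, against a probe set standard deviation of 0.17 for such a double difference, and between E17.5 and the P14-labelled array it was 1.09.

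Reln, the ligand of the other pathway, measured 11.50 at E17.5, 11.01 at P1, 10.69 on the P5-labelled array and 10.96 on the P14-labelled one. The E17.5 array was the highest, and P1 and the P14-labelled array differed by 0.05, inside the probe set spread of 0.10. Reln was 0.49 lower at P1 than at E17.5 (1.40-fold, 4.2 times the probe set standard deviation), and 3.94% of the genes past the filter were as much lower. It was 0.32 lower on the P5-labelled array than on P1 (1.8 times), a step that 23.3% of these genes matched or exceeded. Among the 7 genes, Reln and Ackr3 were the 2 that differed by more than 0.12 between E17.5 and P1. Lower values were common between these arrays, and 58.1% of the genes past the filter were at least 0.02 lower at P1. Of the 11 pontine and rhombic lip markers, 10 were lower at P1 than at E17.5, among them Nhlh1, a factor of newly formed neurons (10.02 and 6.07), and the LIM homeobox factor Lhx2 (9.26 and 7.93). The part of these cells in the values of Reln and Ackr3 was not tested.

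Markers of neurons that make reelin elsewhere in the brain were measured on the same arrays. The median of 9 markers of Cajal-Retzius and GABAergic neurons was 9.11 at E17.5, 7.85 at P1, 8.10 on the P5-labelled array and 8.16 on the P14-labelled one. Their summed signal was 4551, 4018, 11781 and 5539 in that order, with 1 marker, Lhx5, under 6.87 on every array. The sum on the P5-labelled array rests on Calb2, the calcium buffer calretinin, which stood above the others there (9.45, 10.69, 13.19 and 11.63). Without Calb2 the sums were 3852, 2366, 2436 and 2370, highest at E17.5. Of the 9 markers, 6 passed the filter, and 7 of the 9 were lower on the P5-labelled array than at E17.5. Calb2 and Lamp5 (9.11 and 9.14) were higher there. The median difference between these arrays over all genes past the filter was -0.02, so lower values were common. Lhx1, a factor of GABAergic neurons of the hindbrain and cerebellum, was at 9.86, 8.96, 8.10 and 8.39, and Gad2, a GABA synthesis enzyme, at 9.25, 8.37, 8.88 and 8.68; like Reln, both were highest at E17.5. Trp73, the defining factor of Cajal-Retzius cells, stood between 7.22 and 7.56 on all arrays, under the filter. For granule cells of the cerebellum, which also make reelin, the defining receptor subunit Gabra6 stood at 5.61, 5.87, 8.34 and 6.34, all under the filter. The median of 7 granule cell markers was 8.32, 8.06, 8.97 and 8.14, with summed signals of 22146, 19839, 14487 and 17799 and 2, 2, 1 and 2 markers under 6.87. These sums rest largely on Zic1 (13.30, 13.10, 12.46 and 12.91) and Zic2 (13.29, 13.16, 12.73 and 13.04). Zic1, Zic2, Etv1 and Neurod1 were highest at E17.5, whereas Gabra6, Cbln3 and Grin2c were highest on the P5-labelled array. The part of these cells in the Reln signal was not tested.

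Reln and Ackr3 promoters are shown because these 2 genes were both lower at P1 than at E17.5. Each is given as the 250 bases before the most upstream RefSeq start (GRCm38.p6). Windows of all genes were searched on both strands for GGGCGG (the GC box), CANNTG (the E-box) and TATAAA (the TATA box), and matches are in capitals.
Ackr3 (chr1:90203730-90203979, plus strand): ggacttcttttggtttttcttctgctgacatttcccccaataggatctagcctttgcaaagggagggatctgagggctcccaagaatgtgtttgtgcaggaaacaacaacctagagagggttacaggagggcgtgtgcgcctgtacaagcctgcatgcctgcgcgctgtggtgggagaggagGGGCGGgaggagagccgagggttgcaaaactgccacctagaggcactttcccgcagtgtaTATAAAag
Reln (chr5:22344706-22344955, minus strand): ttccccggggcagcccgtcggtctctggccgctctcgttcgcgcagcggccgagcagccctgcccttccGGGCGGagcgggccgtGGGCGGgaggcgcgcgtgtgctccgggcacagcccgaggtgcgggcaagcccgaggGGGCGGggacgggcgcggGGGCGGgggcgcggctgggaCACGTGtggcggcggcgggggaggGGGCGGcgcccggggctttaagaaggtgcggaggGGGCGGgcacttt
The Reln window held 6 GC boxes, 1 E-box and 37 CG dinucleotides, and the Ackr3 window held 1 GC box, 1 TATA box and 7 CG dinucleotides. Over 32851 windows of this length, 32.7% held a GC box, 66.2% an E-box and 12.4% a TATA box, and the median number of CG dinucleotides was 6. The match that both windows share, the GC box, is thus one that 32.7% of all windows hold. These are matches of letters, and no binding was measured.

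The reelin receptors parted on the P5-labelled array. Lrp8 measured 11.94 at E17.5, 11.82 at P1, 10.75 on the P5-labelled array and 11.58 on the P14-labelled one. The value labelled P5 lies 0.83 below the next lowest, and the other 3 lie within 0.36. Vldlr stood at 10.05, 10.01, 10.41 and 9.83 in the same order, and here the value labelled P5 is the highest, by 0.36.

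Between E17.5 and P1 the receptors differed by no more than about the probe set standard deviation of 0.12 (Lrp8 by -0.12, Vldlr by -0.04). Lrp8 was 1.07 lower on the P5-labelled array than on the P1 array (2.10-fold, 6.1 times the probe set standard deviation), whereas Vldlr was 0.40 higher (1.32-fold, 2.3 times). Of the genes past the filter, 3.32% were as much lower as Lrp8 and 27.9% as much higher as Vldlr. The P14-labelled array differed from P1 by -0.24 in Lrp8 and by -0.18 in Vldlr, so that there both receptors were slightly lower. Lrp8 relative to Vldlr changed by -1.47 between P1 and the P5-labelled array (2.77-fold, with a probe set standard deviation of 0.25 for this double difference) and by -0.06 between P1 and the P14-labelled array (0.15). Scaling of whole arrays cancels in this comparison when it shifts all probe sets alike.

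The receptors' promoters are shown with the same search because these paralogues went opposite ways on 1 array; the Lrp8 and Vldlr windows are the most upstream of 3 and 2 in RefSeq.
Lrp8 (chr4:107802635-107802884, plus strand): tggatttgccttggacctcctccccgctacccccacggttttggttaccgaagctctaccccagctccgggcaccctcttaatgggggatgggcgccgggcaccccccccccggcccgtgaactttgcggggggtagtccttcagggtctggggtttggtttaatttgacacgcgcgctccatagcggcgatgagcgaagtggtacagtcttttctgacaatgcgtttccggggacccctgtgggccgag
Vldlr (chr19:27216234-27216483, plus strand): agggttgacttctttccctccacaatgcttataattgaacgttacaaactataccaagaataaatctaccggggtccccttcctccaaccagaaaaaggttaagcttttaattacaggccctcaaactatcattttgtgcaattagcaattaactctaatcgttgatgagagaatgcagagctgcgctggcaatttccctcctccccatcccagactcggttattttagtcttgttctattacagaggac
Neither window held any of the 3 motifs, which says only that these letters are not in these 250 bases. The windows differed in CG content, with 18 CG dinucleotides in that of Lrp8 and 5 in that of Vldlr, against the median of 6.

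Dab1, the adaptor that both receptors share, measured 10.59 at E17.5, 10.57 at P1, 10.21 on the P5-labelled array and 10.19 on the P14-labelled one. The values fell into a higher pair, E17.5 and P1, and a lower pair, the arrays labelled P5 and P14, with 0.02 between the members of each pair. Against P1, Dab1 was 0.36 lower on the P5-labelled array (2.0 times the probe set standard deviation) and 0.38 lower on the P14-labelled one (3.7 times). Of the genes past the filter, 20.9% were as much lower on the former and 5.27% on the latter.

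**Figure D2:**
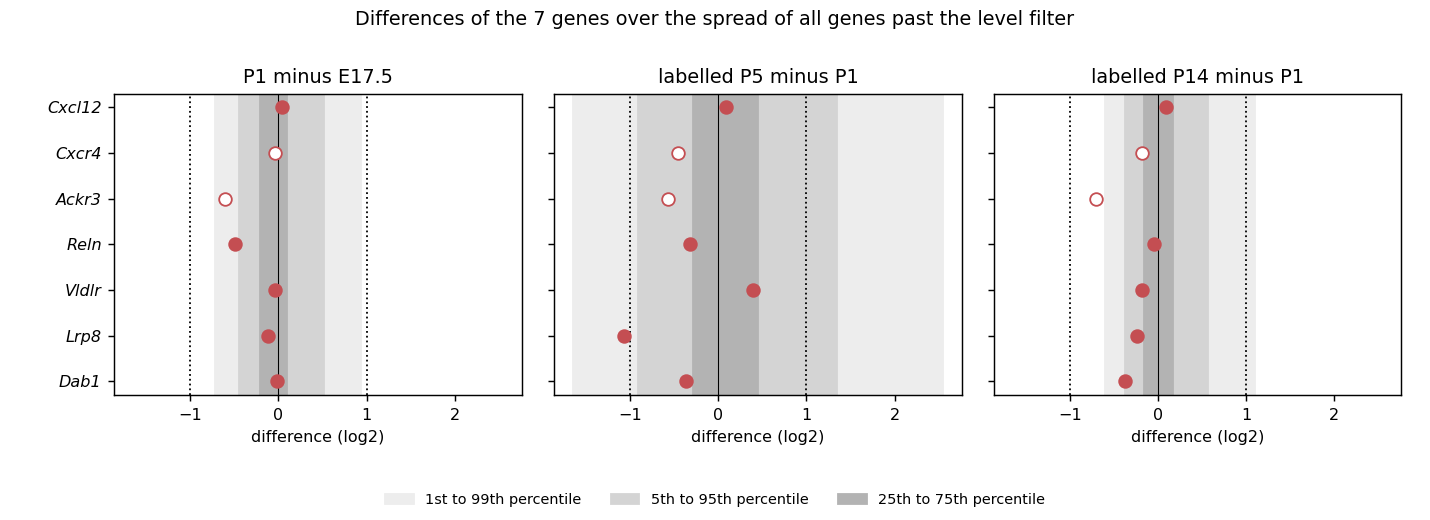
Difference (log2) of each of the 7 genes for P1 minus E17.5, the P5-labelled array minus P1 and the P14-labelled one minus P1; filled points passed the level filter and open points did not, grey bands are percentiles of the 10901 genes past the filter, and dotted lines mark 2-fold. Lrp8 on the P5-labelled array (-1.07) is the single point past 2-fold, and Ackr3 on the P14-labelled one (-0.71) lies below the 1st percentile of those genes (-0.60).

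Counted by size, few of the 7 genes were 2-fold apart. Between E17.5 and P1, none of the 5 genes past the filter was at least 2-fold apart, against a background of 1.10% of the 10901 genes. Between P1 and the P5-labelled array, 1 of 5 was (Lrp8), against 12.9%, and between P1 and the P14-labelled array none was, against 1.47%. Between E17.5 and the P5-labelled array, 1 of 5 was (Lrp8, -1.19), against 16.8%, with Ackr3 besides among the genes under the filter. Between E17.5 and the P14-labelled array, none was, against 5.74%, and Ackr3 passed 2-fold among the genes under the filter. Between the arrays labelled P5 and P14, none was, against 6.66%; Lrp8 came nearest, 0.83 higher on the P14-labelled array, and Vldlr was 0.58 lower there. With 1 of 5 genes, the share is not read as different from the background of 12.9% or 16.8%. The medians over all 7 genes were -0.04 for P1 against E17.5, -0.36 for the P5-labelled array against P1 and -0.18 for the P14-labelled one against P1, beside -0.06, 0.05 and -0.01 over all genes past the filter. Over the 5 of the 7 genes past the filter, the medians were -0.04, -0.32 and -0.18 in the same order. The comparisons share the P1 array, so that these medians are not independent.

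The other genes of the chemokine pathway were taken from a list of 28, of which 25 were measured and 23 passed the filter. At P1, 3 of 23 were at least 2-fold higher than at E17.5 and none lower (median 0.10), against 0.826% higher and 0.275% lower among the 10901 genes: Ptk2b, a calcium-activated focal adhesion kinase (1.58), Rgs4, which shortens Gi and Gq protein signals (1.53), and Cxcl14, another chemokine (1.07). Rgs4 (7.81) and Cxcl14 (8.25) lay under the filter at E17.5, so the sizes of their differences are inexact. The share of 3 genes is not read as different from the 0.826%. Rgs16, a second regulator of G proteins, differed by -0.55, the kinase Jak2 by -0.24 and the Rac activator Elmo1 by -0.19. On the P5-labelled array, 3 of 23 were at least 2-fold higher than at P1 and none lower (median -0.06), against 8.96% higher and 3.94% lower among all genes past the filter: Cx3cl1, the neuronal chemokine fractalkine (2.89), Rgs4 (1.70) and Sdc2, a heparan sulphate proteoglycan (1.32). With 3 genes, this share is not read as different from the background of 8.96%. Sdc2 lay under the filter at P1 (8.19), so the size of its difference is inexact. The receptor kinase Grk3 differed by -0.50, the G protein subunit Gnai3 by -0.48 and the arrestin Arrb2 by -0.34. On the P14-labelled array, 1 of 23 was at least 2-fold higher than at P1 and none lower (median 0.09), against 1.37% and 0.101% of all genes past the filter. It was Cx3cl1 (1.29), followed by Cxcl14 (0.97) and Rgs4 (0.84), while Hmgb1, a nuclear protein that binds CXCL12 outside the cell, differed by -0.46, Jak2 by -0.45 and Gnai3 by -0.27.

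Among the Gi proteins that CXCR4 couples to, Gnai2 stood at 12.18, 12.34, 12.30 and 12.43 in the order of the labels and Gnai1 at 10.79, 11.25, 11.13 and 11.23. Of the arrestins that act at CXCR4 and ACKR3, Arrb1 stood at 11.61, 11.71, 11.72 and 11.82, and Arrb2 at 10.57, 10.62, 10.28 and 10.60, lowest on the P5-labelled array. Dpp4, a protease that inactivates CXCL12, lay under the filter on all arrays (6.39, 6.68, 7.05 and 6.75). Cx3cl1 (8.75, 8.80, 11.69 and 10.09) and its microglial receptor Cx3cr1 (9.02, 9.46, 10.02 and 10.00) were thus both higher on the later-labelled arrays, while Cxcl12 was level and Cxcr4 lower there. Cx3cr1 is also 1 of the 10 microglial markers given above.

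Of 44 other genes of the reelin pathway, 41 were measured and 39 passed the filter. At P1, 2 of 39 were at least 2-fold higher than at E17.5 and none lower (median 0.02), against 0.826% and 0.275% of all genes past the filter: Apoe (1.60) and Clu (1.32), lipid-carrying proteins that bind the same receptors as reelin and are made by astrocytes. The share of 2 genes is not read as different from the 0.826%. Rap1gap, which switches off the small GTPase Rap1, differed by 0.45, the phosphoinositide kinase Pik3ca by -0.37, the cadherin Cdh2 by -0.31 and the Cdk5 activator Cdk5r1 by -0.26. On the P5-labelled array, 2 of 39 were at least 2-fold higher than at P1 and 4 lower (median 0.14), against 8.96% higher and 3.94% lower among all genes past the filter. With 2 and 4 genes, these shares are not read as different from the background. The higher ones were Adamts4 (3.89), a protease that can cleave reelin, and Clu (1.67), and the lower ones were Dcx, a microtubule protein of migrating neurons (-3.09), the microtubule protein Mapt (-1.31), Cdk5r1 (-1.23) and Dab2ip, a Ras GTPase-activating protein (-1.02); Rap1a, a form of Rap1, differed by 0.99. On the P14-labelled array, 1 of 39 was at least 2-fold higher than at P1 and none lower (median -0.01), against 1.37% and 0.101% of all genes past the filter. It was Clu (1.09), followed by Adamts5 (0.63) and Apoe (0.61), while Dcx differed by -0.74, Cdh2 by -0.46 and Cdk5r1 by -0.36. Adamts4 (8.17) and Adamts5 (7.68) lay under the filter at P1, so the sizes of their differences are inexact.

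The RNAs of proteins that act at DAB1 were measured too. Fyn, the Src family kinase that phosphorylates DAB1, stood at 11.53, 11.55, 11.76 and 11.62 in the order of the labels, and Src at 10.51, 10.50, 10.13 and 10.41. The adaptor Crk, which binds phosphorylated DAB1, stood at 10.84, 10.74, 10.98 and 10.73, Crkl at 11.04, 10.87, 10.63 and 10.64, and Rapgef1, the Rap1 activator they carry, at 10.71, 10.87, 10.59 and 10.71. Cul5, part of the ubiquitin ligase that degrades DAB1, stood at 10.21, 10.06, 10.04 and 9.86, and its partner Socs7 at 10.45, 10.39, 10.02 and 10.31. Mylip, a ubiquitin ligase for both VLDLR and APOER2, stood at 8.40, 8.74, 8.98 and 9.00. Adamts3, a reelin protease, stood at 9.68, 9.82, 8.92 and 9.55, so that it was lowest on the P5-labelled array, as Reln and Lrp8 were, where Adamts4 was highest (7.95, 8.17, 12.06 and 8.69). The median of the myelin markers, given above, was highest on the P5-labelled array too. Any part of myelinating cells in the Adamts4 signal was not tested.

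**Figure D3:**
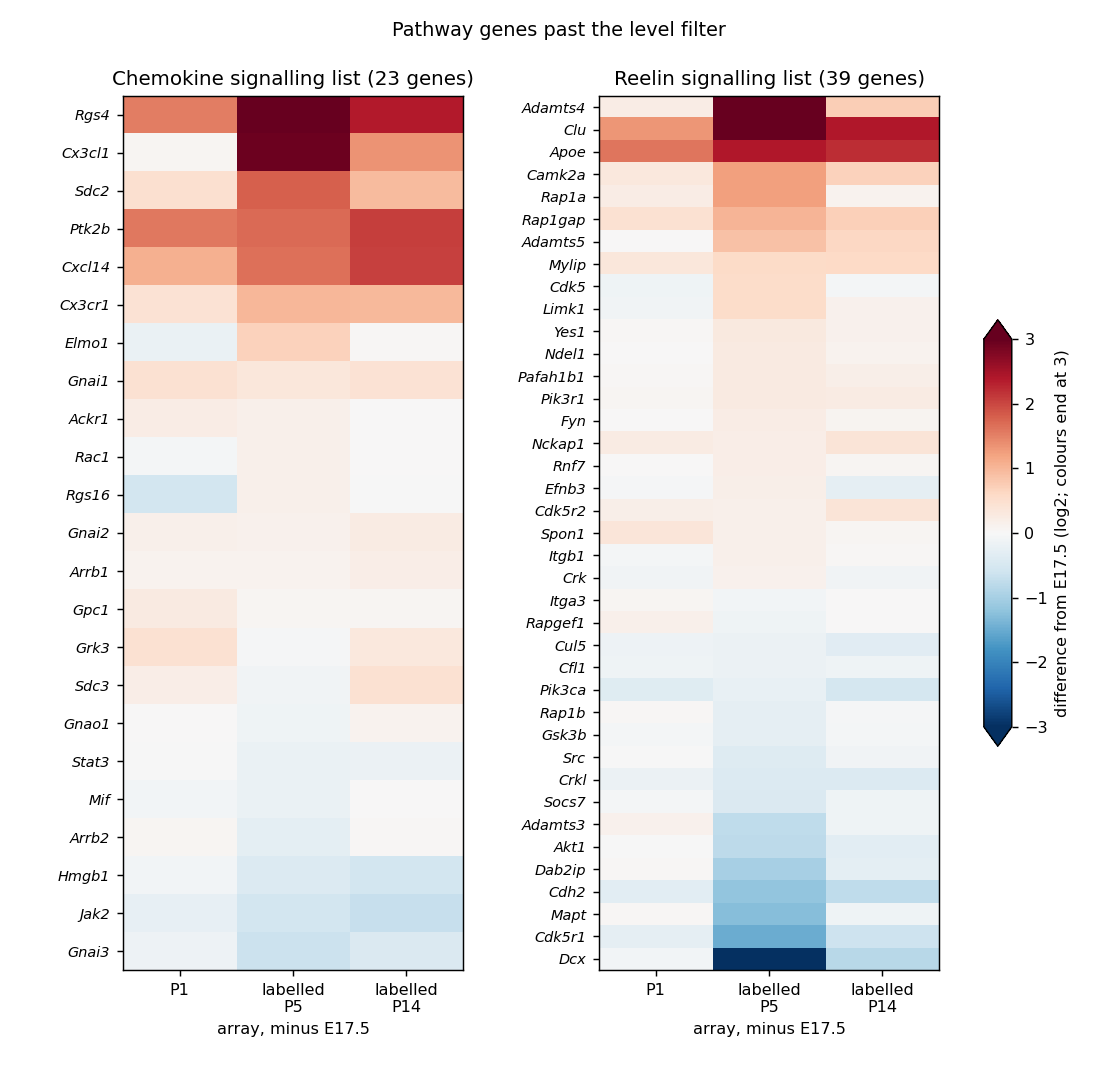
Difference from E17.5 (log2, colour) of the 23 chemokine and 39 reelin pathway genes past the level filter on the P1 array and on the arrays labelled P5 and P14, sorted by the P5-labelled array. Rgs4, Cx3cl1, Adamts4, Clu and Apoe are the reddest on that array and Dcx is the bluest, while most of the other genes lie within 1 of E17.5.

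Markers of other cell types differed between the same arrays as the receptors. The 8 young neuron markers had a median of 9.49 on the P5-labelled array, where Lrp8 was lowest, against 12.94 at E17.5, 12.86 at P1 and 12.11 on the P14-labelled array, and their summed signal was 23398 against 65992, 58620 and 43504. The young neuron list includes Dcx, which the reelin list holds too. The median of 10 astrocyte markers was 9.45, 10.38, 12.16 and 11.32 in the order of the labels, with summed signals of 11282, 20106, 42611 and 31144, and that of 9 myelin markers, with sums of 1857, 2642, 55558 and 5713, was given above. No young neuron or astrocyte marker lay under 6.87 on any array, and 2, 2, 0 and 2 myelin markers did. Cxcr4 too was lowest on the P5-labelled array. The part of these cell types in the values of Cxcr4, Lrp8, Vldlr and Dab1 was not tested.

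**Figure D4:**
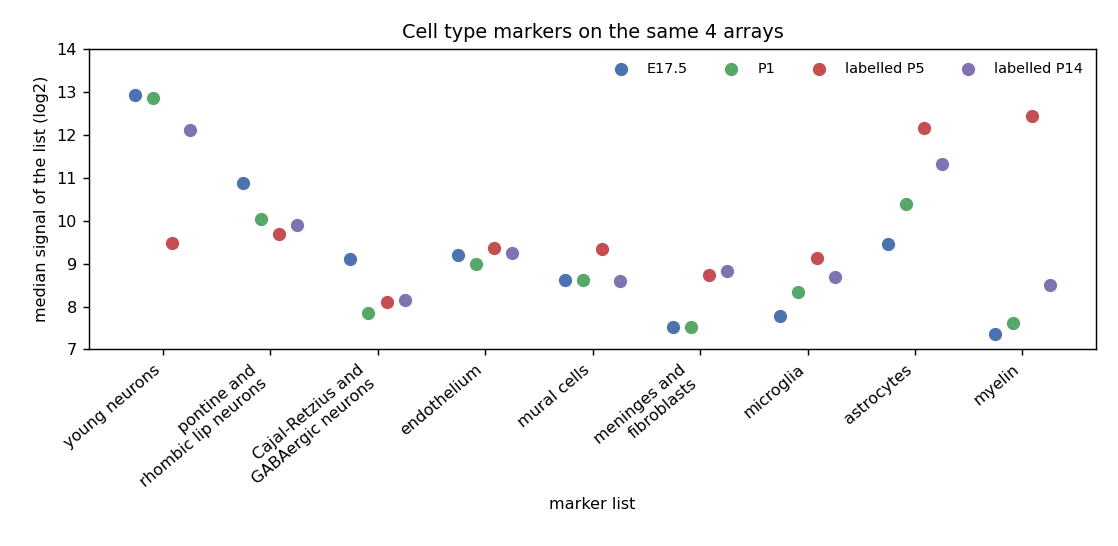
Median signal (log2) of 9 marker lists on the 4 arrays; each point is the median over the markers of 1 list on 1 array. Young neuron markers are lowest (9.49) and myelin markers highest (12.43) on the P5-labelled array, while the endothelial medians lie between 9.00 and 9.36.

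For the 2 genes with a range of at least 1, the genes with the most similar course were sought among those past the filter, by the root mean square difference between centred values over the 4 arrays. Nearest to Lrp8 were Sh3kbp1 (0.018), which encodes an adaptor of receptor endocytosis, Nasp (0.018), a histone chaperone, and Dapk1 (0.019), a calmodulin-regulated kinase. Sh3kbp1 stood at 11.15, 11.03, 10.00 and 10.82 in the order of the labels, so that it too was lowest on the P5-labelled array. Nearest to Ackr3 were Gpr85 (0.075), an orphan receptor of the brain, Zfp668 (0.092), a zinc finger protein, and Nes (0.096), the intermediate filament nestin of neural progenitors. Nes stood at 9.41, 8.94, 8.31 and 8.36, highest at E17.5 like Ackr3. The search drew on the 10901 genes past the filter, without olfactory and vomeronasal receptors, small RNAs and predicted or unnamed genes. It used only 4 arrays, and the similarity is a description with no test.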

How the data were processed

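Pooled pontine nucleus of 4 ages was measured on 1 Affymetrix array each. Per the submitters' processing notes, the authors used Affymetrix Expression Console, and the deposited probe set signals were taken as log2 values from their range of 1.84 to 14.72. Its version, the summary and normalisation steps and the genome build are not stated in the sources used here. Array medians lay between 7.89 and 7.94, and the values were not rescaled.

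Of 35556 probe sets, 21789 had 1 gene symbol in the platform's table, 1621 had several and 12146 were not listed there. Where a gene had several, that with the highest mean was used. The identifiers of all 7 genes matched RefSeq (GRCm38.p6), which also gave the promoter windows. Differences were taken in Python 3.11.15 with pandas 2.3.3 and numpy 2.4.6, rounded to 2 decimals and counted at 2-fold. The procedure was tested on simulated data with planted changes larger than 2-fold, so that test did not cover differences near 2-fold. With 1 array per age, the number of arrays limits precision and no test was run.

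The genes, lists and comparisons were chosen with earlier results of these data known. All 7 genes are named. From each pathway list the 3 largest differences in each direction were named for P1 against E17.5 and for the arrays labelled P5 and P14 against P1, and the 3 genes most similar to a gene with a range of at least 1, leaving out olfactory and vomeronasal receptors, small RNAs and predicted or unnamed genes; the other pathway and marker genes were named for their known role, after their values were seen. Alternatives changed the probe set rule, the scaling, the level filter and the size threshold.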

Additional observations from a re-analysis of the deposited data

How the results depend on the processing

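No paired analysis was possible because each age is a single pooled array. Each of the 7 genes has 1 probe set, so other probe set rules could not change their values. Under median centring and quantile normalisation, all 84 values of the 7 genes' differences moved by less than the probe set standard deviation, with a largest shift of 0.09. The sign turned in 2 of them, both of Dab1 under quantile normalisation and both of a difference of -0.02: 0.03 for P1 against E17.5 and 0.05 for the P14-labelled array against the P5-labelled one. Of 60 counts at 2-fold that an alternative could change, 56 stayed within 1.5 times, as did 6 of 12 at 1.5-fold. With no level filter, or one at the lower quartile (6.87), Ackr3 entered the count, which became 1 for the P14-labelled array against E17.5 and 2 for the P5-labelled one against E17.5. At 1.5-fold the count of the 7 genes past the filter was 1 for the P14-labelled array against the P5-labelled one and 2 for the P5-labelled one against E17.5. At 1.5-fold the pathway genes counted were 21 for the P5-labelled array against P1, 12 for the P14-labelled one against the P5-labelled one, 17 for the P14-labelled one against E17.5 and 7 for the P14-labelled one against P1, against 9, 5, 6 and 2 at 2-fold; a lower threshold counts more genes by construction. Without the P5-labelled array, the ranges of Lrp8, Reln, Vldlr and Cxcr4 were the ones that moved. With signals near the filter, the sizes of the differences of Cxcl12, Cxcr4 and Ackr3 are the least certain among the 7 genes.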
